A study of Homo sapiens and Mus musculus with 66 samples.

Results

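The olfactory receptor genes of chromosome 11 were taken as the protein-coding genes of that chromosome whose symbol reads OR, digits, letters, digits in GENCODE release 44 on hg19. The rule gave 171 genes out of 20163 protein-coding genes on chromosomes 1 to 22, X and Y. The study mapped chromatin close to the nuclear lamina (NL) by lamin-B1 cTSA-seq, in which a peroxidase-coupled antibody leaves biotin on fixed chromatin near lamin-B1, and the labelled chromatin is pulled down on streptavidin and sequenced beside its input. K562, a human leukemia cell line, was asynchronous and untreated (2 pull-down and 2 input libraries), and the authors also deposited calls from published K562 TSA-seq, which pulls down purified DNA in place of chromatin. HCT116, a human colorectal carcinoma cell line, was asynchronous and untreated in the bulk experiment (2 pull-down and 2 input libraries). The same was true of the counted experiments with 1000000 cells (1 pull-down library in the labels), 200000 cells (2) and 50000 cells (2), each with 1 input library. The sorted G1, S and G2 cells came from untreated HCT116 cultures, with G2 taken as G2/M by DNA content. The 90m G1 and 180m G1 cells had been held in mitosis with nocodazole (16 h in the labels, a longer time in the study's methods), shaken off, released for 90 or 180 min and sorted for G1 DNA content, so that both of these stages carry the block and no other group does. Each sorted stage had 2 pull-down and 2 input libraries.

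The values used here are the deposited lists of regions called as enriched in 100 kb windows, 1 list per condition. These lists carry no signal, no read depth and no separate replicates. A receptor gene was counted as called in a list when 80% or more of its length lay inside regions. Because no list keeps its replicates apart, the spread between replicates could not be computed from them and no test was run, so that all counts describe the lists. The reads of the single libraries were not analysed here. Neither cell line is an olfactory cell, and receptor expression is not part of these lists.

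Olfactory receptors are G protein-coupled receptors that bind odorants on the cilia of olfactory sensory neurons. Each such neuron expresses a single receptor allele and keeps the other receptor genes silent in compact chromatin. The genes are short, mostly carry the whole coding sequence in a single exon, and arose by local duplication, so that relatives sit side by side. Class I receptors, families 51, 52, 55 and 56, resemble fish receptors and bind mainly water-soluble odorants such as carboxylic acids, while class II receptors came with life on land. Lamina-associated domains (LADs) are long stretches of mostly silent, gene-poor and AT-rich chromatin at the NL.

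The sequence that best shows what these genes share is the stretch at the inner end of the third transmembrane helix, where the receptor meets its G protein. The following 30 bases of hg19, read 5′ to 3′ on the coding strand, come from OR51E2, OR51V1 and OR5P2 of cluster 1 and from the first members of clusters 4, 5, 6 and 8, as the clusters are defined below. Capitals mark ATG, any 2 codons, a codon for aspartate and a codon for arginine.
OR51E2, chr11:4703570-4703599, minus strand: ctggccATGGCCTTTGACCGTtatgtggcc
OR51V1, chr11:5221529-5221558, minus strand: ctcactATGGCCTTTGACCGGtacattgca
OR5P2, chr11:7818127-7818156, minus strand: gctgccATGGCCTATGACCGCtttgtggca
OR4A5, chr11:51412027-51412056, minus strand: gtggtgATGGCCTGTGATCGCtatgtggcc
OR4A16, chr11:55111016-55111045, plus strand: gtggtgATGGCCTATGATCGCtatgtggct
OR9Q1, chr11:57947262-57947291, plus strand: gccctcATGGCCTATGACCGCtacttggct
OR6X1, chr11:123624858-123624887, minus strand: actatcATGTCTTTTGACCGCtacctcacc
Searched in frame in the part of the coding sequence where this helix ends, the pattern was present in 132 of the 171 members (39 of 55 class I and 93 of 116 class II genes), in 60 forms of these 15 bases. The most frequent form, ATGGCCTATGACCGC, was found in 28 members of clusters 1, 2, 5, 6, 7 and 8. The 7 members shown were called in very different numbers of lists, from 0 for OR51V1 to 10 for OR4A16.

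Members separated by more than 1 Mb were placed in different clusters, which gave 8 clusters along the chromosome (coordinates in hg19). Cluster 1 on the short arm held 67 members from OR52B4 to OR10A3 (chr11:4388493-7963255, 3.57 Mb), among them all 55 class I genes. Cluster 2 held 7 members (chr11:48238362-48511274), cluster 3 held OR4C13 and OR4C12 (chr11:49973943-50004071), and cluster 4 held OR4A5, OR4A8 and OR4C46 (chr11:51411378-51516211). Cluster 5 held 48 members from OR4A16 to OR5AK2 (chr11:55110677-56757318, 1.65 Mb). Clusters 4 and 5 flank the assembly gap of the centromere (chr11:51594206-54694205), which holds no sequence. Cluster 6 held 21 members from OR9Q1 to OR10V1 (chr11:57791353-59481318), cluster 7 only OR2AT4 (chr11:74792798-74807921), and cluster 8 held 22 members from OR6X1 to OR8A1 (chr11:123624288-124452838). The 171 genes fell in 66 windows of 100 kb, so that neighbours often share a window and with it a call.

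Receptor genes were called several times as often as genes at large in 10 of the 11 lists, and less often in the 90m G1 list. In the K562 cTSA-seq list 77 of the 171 members were called (45%), against 11% of all protein-coding genes. In the K562 TSA-seq list 70 were called (40.9%, against 9.21%). In HCT116 bulk cells 79 were called (46.2%, against 11.1%). With 1000000 cells the number was 88 (51.5%, against 4.89%), with 200000 cells 67 (39.2%, against 5.08%), and with 50000 cells 94 (55%, against 5.98%). In 90m G1 only 12 members were called (7.02%, against 17.2%). In 180m G1 the number was 92 (53.8%, against 5.3%), in G1 57 (33.3%, against 4.81%), in S 56 (32.7%, against 5.38%), and in G2 56 (32.7%, against 4.55%). These shares rest strongly on cluster 5. Without it, between 6.5% (S) and 37.4% (50000 cells) of the other 123 members were called in the lists other than 90m G1. In 90m G1 the share was 9.76%. In S, G1 and G2 the shares without cluster 5 were 6.5%, 7.32% and 7.32%, against 5.38%, 4.81% and 4.55% of all protein-coding genes. The excess was thus small in these lists, whereas with 50000 cells 37.4% stood against 5.98%.

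**Figure D1:**
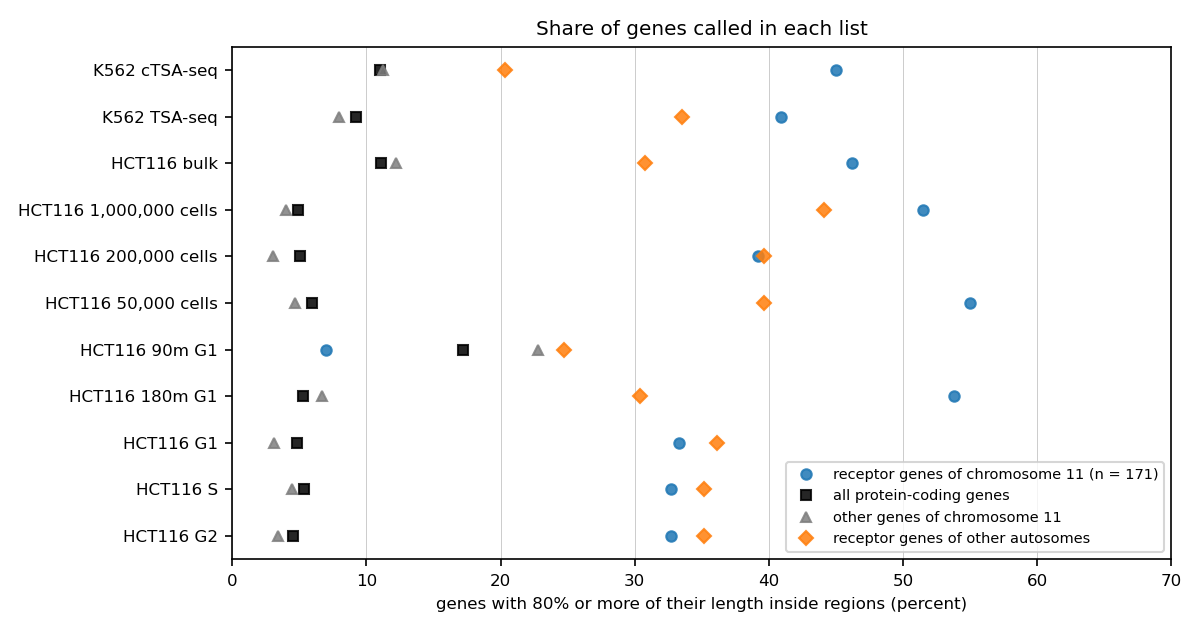
Percent of genes with 80% or more of their length inside regions (x axis) in each of the 11 lists (y axis) for the 171 receptor genes of chromosome 11, all 20163 protein-coding genes, the 1146 other protein-coding genes of chromosome 11 and the 227 receptor genes of the other autosomes. The receptor genes lie to the right of both general gene sets in 10 lists and to the left of them in 90m G1 (7.02% against 17.2% and 22.8%); there are no error bars because each list is a single merged list.

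The 227 olfactory receptor genes of the other autosomes were called at shares from 20.3% (K562 cTSA-seq) to 44.1% (1000000 cells). Their share was below that of the chromosome 11 members in K562 cTSA-seq, K562 TSA-seq, HCT116 bulk, 1000000 cells, 50000 cells and 180m G1, and above it in 200000 cells, 90m G1 (24.7%), G1, S and G2. The difference was not tested, and genes of a cluster share their calls on every chromosome.

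No member was called in all 11 lists (0%, against 0.397% of all protein-coding genes). None was called in all 10 lists that belong to a condition either (0%, against 0.541%). The members fell mainly into those called almost everywhere and those called nowhere: 47 (27.5%) were called in 10 lists, all but 90m G1, against 1.44% of all protein-coding genes. At the other end 51 (29.8%) were called in none of the 11, against 67.7% of all genes. Between these, 24 members were called in 3 lists (14%, against 1.93% of all genes) and 21 in 4 lists (12.3%, against 0.843%). Within the clusters the members formed 27 stretches of neighbours with equal calls, of which the longest held 47 and 30 genes.

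**Figure D2:**
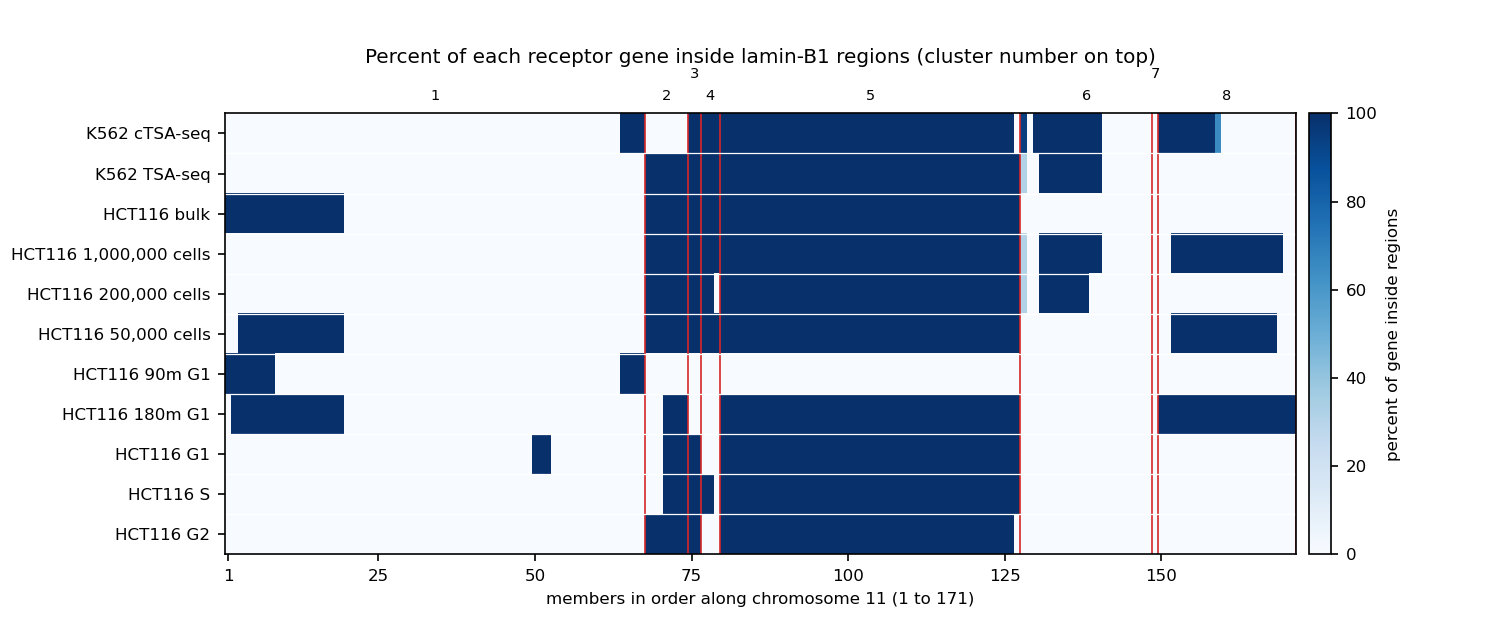
Percent of each of the 171 receptor genes inside regions (shading, 0 to 100%), with genes in order along chromosome 11 on the x axis, lists on the y axis and red lines at the cluster borders. Cluster 5 is dark in every list but 90m G1, cluster 1 is pale apart from its ends and a short block in G1, and only OR9Q1 and OR10G8 show intermediate shading.

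Cluster 5, the largest class II cluster, was the stable core. The 47 genes from OR4A16 to OR5G3 lay completely inside regions in K562 by both methods, in HCT116 bulk cells, at all 3 cell numbers, and in 180m G1, G1, S and G2, and were outside in 90m G1. They belong to families 4, 5, 8, 9 and 10. OR8K5 (chr11:55926870-55927793) marks the middle of the cluster. The regions that held them began between positions 54600001 and 55100001 and ended between 56600000 and 57200000. The region starts differed most between the unsorted and the sorted samples. They lay at 54600001 or 54700001 in the 2 K562 lists, bulk cells and the 3 cell numbers. The assembly gap of the centromere ends at 54694205, so these starts lie at its edge and need not be region borders. In 180m G1, G1, S and G2 the start was 55100001, that of the window in which OR4A16 lies. The last member, OR5AK2 (chr11:56756389-56757318), lay 0% inside regions in K562 cTSA-seq, 90m G1 and G2 and 100% inside in the other 8 lists. It is 169 kb from OR5G3, its nearest relative by coding sequence (62.5% identity). The 4 other protein-coding genes inside the cluster, among them TRIM51, a tripartite motif gene, followed the receptors: 3 were called in the same 10 lists and the fourth, OR5AK3P next to OR5AK2, in the same 8 lists as OR5AK2. OR5AK3P and OR5D3P are annotated as protein-coding in this release and are no members because of their symbols.

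**Figure D3:**
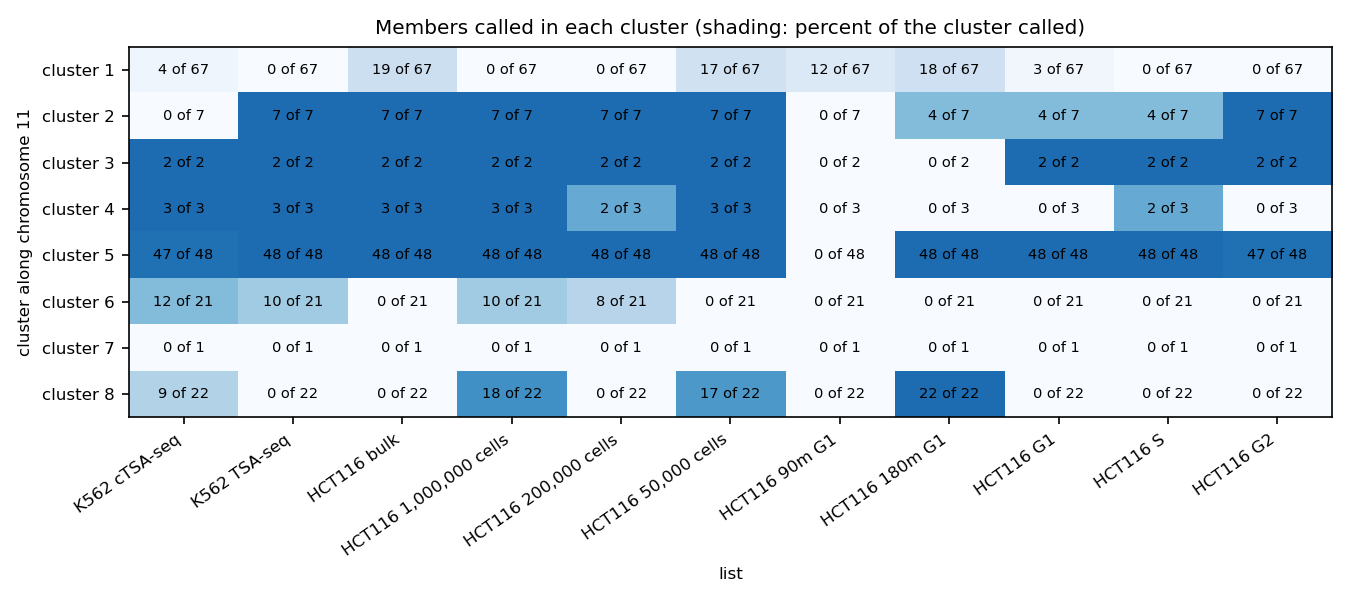
Number of members called out of the members of each cluster (rows) in each list (columns), with shading for the percent called. Cluster 5 has 47 or 48 of 48 in 10 lists and 0 of 48 in 90m G1, while cluster 8 ranges from 0 of 22 to 22 of 22.

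Clusters 2, 3 and 4 lie on the short arm side of the centromere and hold family 4 genes only. In cluster 2 all 7 members were called in K562 TSA-seq, HCT116 bulk, the 3 cell numbers and G2, and none in K562 cTSA-seq and 90m G1. OR4B1, OR4X2 and OR4X1 at its start were outside regions in 180m G1, G1 and S, whereas OR4S1, OR4C3, OR4C5 and OR4A47 were inside. The region border lay at 48300001 in these 3 lists, between OR4X1 and OR4S1. In K562 the region began at 48600001 by cTSA-seq and at 48200001 by TSA-seq, and the whole cluster lies between these borders. OR4C13 and OR4C12 of cluster 3 were called in 9 lists, all but 90m G1 and 180m G1. In cluster 4, OR4A5 and OR4A8 were called in 7 lists, which included S, where a single 100 kb region held both, but not G1, G2, 180m G1 or 90m G1. OR4C46, the third gene of cluster 4, was called in 5 lists and lacked S and 200000 cells as well. No other protein-coding gene lies within cluster 2, 3 or 4.

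Cluster 1 was outside regions for most of its length, and class I receptors were called in fewer lists than class II receptors. Of the 55 class I genes 0 were called in K562 by either method and 0 with 1000000 cells, with 200000 cells, in S and in G2. Class I genes were called in HCT116 bulk (19, 34.5%, against 11.1% of all genes) and 180m G1 (18, 32.7%, against 5.3%). They were also called in 50000 cells (17, 30.9%, against 5.98%), 90m G1 (8, 14.5%, against 17.2%) and G1 (3, 5.45%, against 4.81%). Of the 116 class II genes 77 were called in K562 cTSA-seq (66.4%, against 11%) and 60 in HCT116 bulk (51.7%, against 11.1%). The range was from 4 in 90m G1 (3.45%, against 17.2%) to 88 in 1000000 cells (75.9%, against 4.89%). All class I genes lie in cluster 1, so class and position cannot be told apart. The 12 class II genes of cluster 1 give the only comparison within a cluster: 4 of them were called in K562 cTSA-seq and 90m G1, and 8 in no list.

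The first 19 genes of cluster 1, from OR52B4 to OR51A2, formed its called end. OR52B4 (chr11:4388493-4389616) was called in HCT116 bulk and 90m G1 only, and its neighbour OR52K2 also in 180m G1. The 6 genes from OR52K1 to OR51E1 were called in bulk, 50000 cells, 90m G1 and 180m G1, and the 11 genes from OR51E2 to OR51A2 in bulk, 50000 cells and 180m G1. OR51E1 (chr11:4664650-4676718) and OR51E2 (chr11:4701401-4719084), both also known from prostate tissue and the second as a receptor of short-chain fatty acids, thus differed in a single list, since the 90m G1 region ran from the chromosome start to 4700000 and ended between them. The pair is 65% identical in coding sequence. The regions of bulk, 50000 cells and 180m G1 began at 4200001, 4500001 and 4400001 and all ended at 5000000, in the gap between OR51A2 (chr11:4976002-4976943) and OR51L1 (chr11:5016081-5026766). TRIM21 and TRIM68, tripartite motif genes among these receptors, and MMP26, a matrix metalloprotease gene, were called in bulk and 180m G1 too, TRIM21 and TRIM68 also in 90m G1, and TRIM68 and MMP26 also with 50000 cells.

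The next 30 genes, from OR51L1 to OR56A5 (chr11:5016081-5989724), were called in none of the 11 lists. They surround the beta globin genes, which are expressed in erythroid cells and of which K562 is known to express embryonic and fetal members. OR52A1 (chr11:5168054-5175987) and OR51V1 (chr11:5220965-5221912) lie before HBB, and OR51B4, OR51B5, OR51B2 and OR51B6 lie past the start of HBE1, inside its annotated span (chr11:5289575-5526882), which like that of OR51B5 reaches far beyond the coding sequence. All 6 were 0% inside regions in every list, in HCT116 as in K562. HBB, HBD, HBG1, HBG2 and HBE1 were 0% inside as well, and so were TRIM6, TRIM34, TRIM5 and TRIM22, tripartite motif genes among the receptors of this stretch. Measured from the middle of HBB, the nearest region before it ended 0.249 Mb away in bulk, 50000 cells and 180m G1 and 0.549 Mb away in 90m G1, and the nearest region behind it began from 0.751 Mb (G1) to 15.5 Mb (K562 TSA-seq) away. K562 cTSA-seq, K562 TSA-seq, 1000000 cells, 200000 cells, G1, S and G2 had no region between the chromosome start and the globin genes. These receptors were not in the list of K562 regions depleted by both methods either. OR51B5 is annotated over 202 kb because some of its transcripts start far away, and its coding sequence measures 936 bp, also outside all regions.

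**Figure D4:**
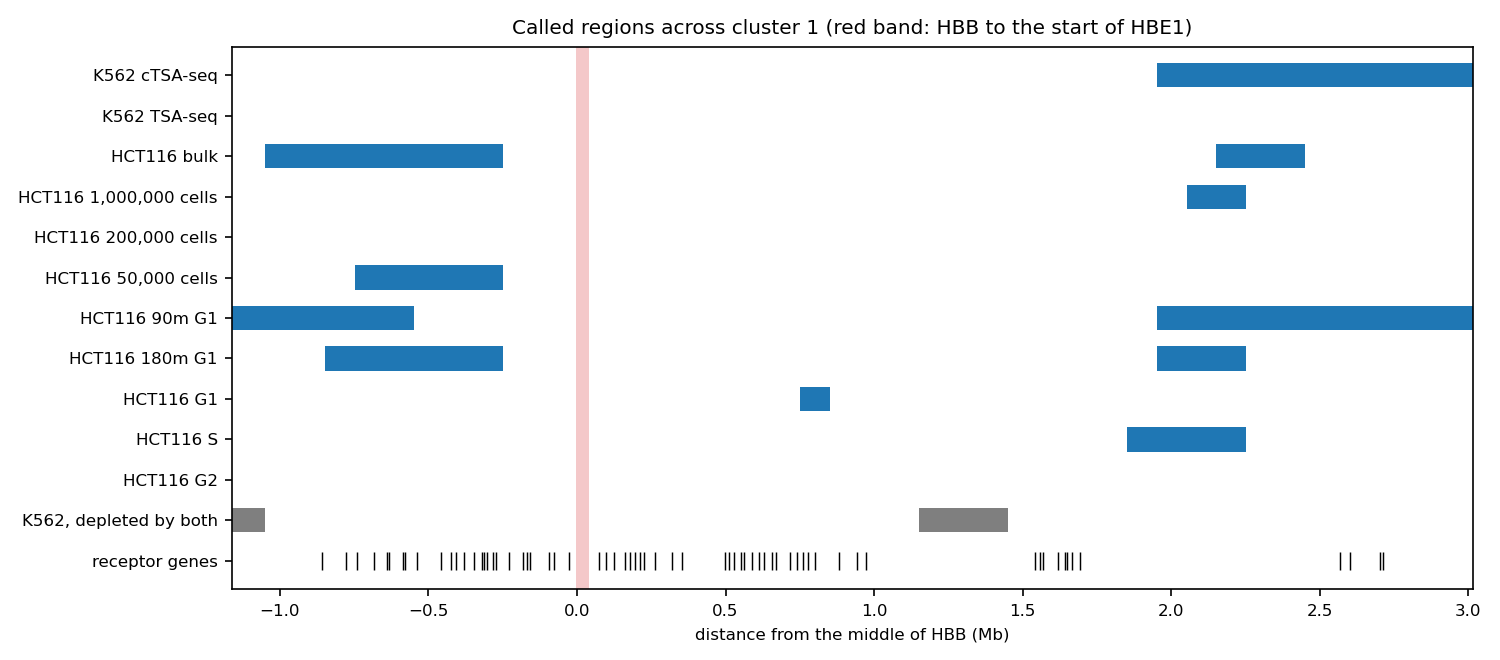
Called regions (bars) in each list across cluster 1, with distance from the middle of HBB in Mb on the x axis, 1 row per list, a grey row for regions depleted in K562 by both methods, and ticks for the 67 receptor genes. The red band from HBB to the start of HBE1 and the receptors around it lie outside every bar, and the bars of bulk, 50,000 cells and 180m G1 all stop 0.249 Mb before the middle of HBB.

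Behind that stretch OR52L1, OR56A4 and OR56A1 (chr11:6007122-6055568) were called in G1 and in no other list, in a region of a single 100 kb window. The 11 genes from OR56B4 to OR2D3 were called in no list. OR52B2 (chr11:6190585-6191556), the member nearest to the middle of cluster 1, is one of them. OR5P2, OR5P3, OR10A6 and OR10A3 (chr11:7817521-7963255), class II genes at the end of the cluster, were called in K562 cTSA-seq and 90m G1. In K562 they lay in a region of 1.4 Mb that is on the authors' list of regions found by cTSA-seq and not by TSA-seq, and in 90m G1 in a region of 1.2 Mb. Both regions began at 7200001. The 47 other protein-coding genes within cluster 1 make it the cluster with most such neighbours.

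Cluster 6 was called in part in both K562 lists and in 2 HCT116 lists. The 8 genes from OR9Q2 to OR5B2 were called in K562 by both methods, with 1000000 cells and with 200000 cells, and in none of bulk, 50000 cells and the 5 sorted stages. OR5B12 and OR5B21 behaved alike but were outside with 200000 cells. OR9Q1 and OR9I1 were called in K562 cTSA-seq only. OR9Q1 is annotated over 158 kb, and 94.5% of it lay inside regions in K562 cTSA-seq, against 31.1% in K562 TSA-seq, 1000000 cells and 200000 cells. With its coding sequence alone OR9Q1 would be called in those 3 lists too, since its coding end lies inside the region that begins at 57900001. OR6Q1, which lies within the span of OR9Q1, was called in none. The last 8 members, from OR5AN1 (chr11:59126368-59139187), a receptor of musk odorants, over OR5A2 to OR4D11, OR4D9 and OR10V1, were called in none. No gene of the 14 others within cluster 6 was called in any list, and 67.7% of all protein-coding genes were called in none.

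OR2AT4 in cluster 7, a receptor of sandalwood odorants also found in keratinocytes, was called in no list and is the only member inside the K562 regions depleted by both methods, a list that holds 54.6% of all protein-coding genes. Its 100 kb window had the highest GC content of all members (46.9%, against a median of 37.5%).

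Cluster 8 near the end of the long arm was called in full only in 180m G1, in which all 22 genes lay in a region of 0.9 Mb (chr11:123600001-124500000). With 1000000 cells 18 were called, from OR8D4 to OR8B8, and with 50000 cells 17, from OR8D4 to OR8B4. K562 cTSA-seq had the first 9, from OR6X1 to OR10G9, in a region of 3.4 Mb that begins before the cluster. K562 TSA-seq, bulk, 200000 cells, 90m G1, G1, S and G2 had none. OR10G8 (chr11:123897505-123901341) spans the K562 border, with 65.1% inside. OR8B12 and OR8A1 at the far end were called in 180m G1 alone. OR10D3, the middle gene, was called in 3 lists, and VWA5A, a von Willebrand factor A domain gene between the receptors, in the same 3. In 90m G1 regions lay on both sides of the cluster and none across it.

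**Figure D5:**
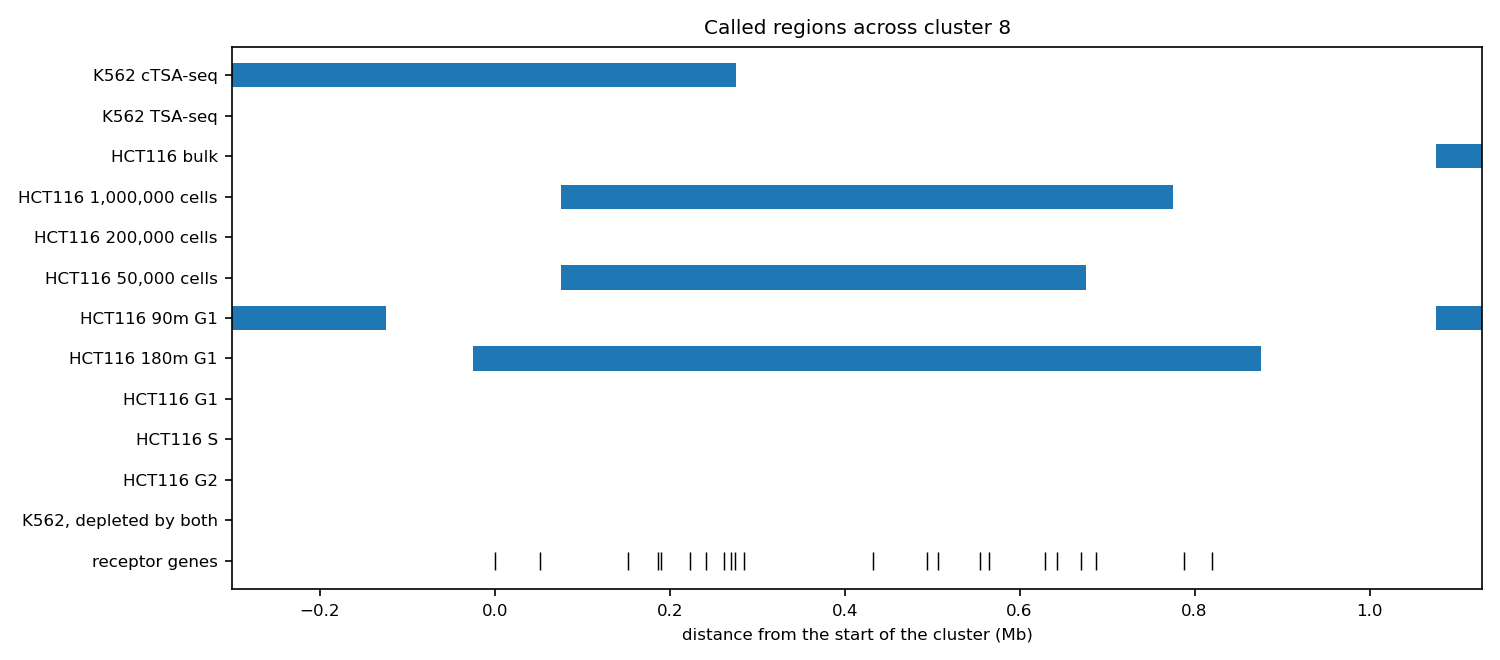
Called regions (bars) in each list across cluster 8, with distance from the start of the first gene in Mb on the x axis, 1 row per list and ticks for the 22 receptor genes. The bar of 180m G1 spans all ticks, those of 1,000,000 and 50,000 cells span 18 and 17 of them, and 200,000 cells and G1, S and G2 have no bar.

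By method in K562, 62 members were called by both cTSA-seq and TSA-seq. These 62 are 36.3% of the members, against 6.78% of all protein-coding genes. Another 15 were called by cTSA-seq only (8.77%, against 4.26% of all protein-coding genes): OR5P2, OR5P3, OR10A6 and OR10A3 of cluster 1, OR9Q1 and OR9I1 of cluster 6 and the first 9 genes of cluster 8. TSA-seq alone called 8 (4.68%, against 2.43%): the 7 genes of cluster 2 and OR5AK2. A further 85 members (49.7%, against 32% of all genes) were neither called by a method nor depleted by both. The TSA-seq list comes from published data made with another lamin-B antibody than the cTSA-seq list. Method, antibody and experiment therefore cannot be told apart in these counts.

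Between the cell lines, 52 members (30.4%, against 3.82% of all protein-coding genes) were called in both K562 cTSA-seq and HCT116 bulk, all of them in clusters 3, 4 and 5. In K562 only there were 25 (14.6%, against 7.22% of all protein-coding genes), which are 4 of cluster 1, 12 of cluster 6 and 9 of cluster 8. In HCT116 bulk only there were 27 (15.8%, against 7.27%), which are the first 19 of cluster 1, the 7 of cluster 2 and OR5AK2. The K562-only genes were not foreign to HCT116 in every experiment. Apart from OR9Q1 and OR9I1, each of the 25 was called in 1 or more of the other HCT116 lists. Called in K562 cTSA-seq and in no HCT116 list were thus 1.17% of the members, against 5.67% of all protein-coding genes. For the 4 of cluster 1 the only HCT116 list was 90m G1, which called 17.2% of all protein-coding genes. Cell line and experiment cannot be told apart here, since lists from HCT116 cells differed among themselves as well.

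Across the cell numbers 59 members (34.5%, against 3.94% of all protein-coding genes) were called at all 3, and 46 (26.9%, against 2.89% of all protein-coding genes) in some but not all. These 46 went both ways. The 17 genes of cluster 1 from OR52K1 to OR51A2 (9.94%, against 1.65% of all genes) were called with 50000 cells and not with 1000000 cells. The other way round were 11 genes, the 10 from OR9Q2 to OR5B21 of cluster 6 and OR8B8 of cluster 8 (6.43%, against 0.56%). With 1000000 and not 200000 cells 21 members were called (12.3%, against 0.813% of all genes), and with 200000 and not 1000000 cells 0 (0%, against 1.01%). The labels give 1 pull-down library for the list of 1000000 cells, and whether the differences follow cell number or library was not tested.

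Across the sorted stages the receptor genes showed their largest difference between 90m G1 and all later stages. The 90m G1 and 180m G1 lists are not named as consensus lists, whereas those of G1, S and G2 are. Whether this bears on the differences was not tested. In 90m G1 the 12 called genes were the first 8 and the last 4 of cluster 1, whereas 0 of the 104 members of the other 7 clusters were called. In 180m G1, G1, S and G2 together 51 members were called that were outside in 90m G1 (29.8%, against 1.57% of all protein-coding genes), namely the 47 of cluster 5 and OR4S1, OR4C3, OR4C5 and OR4A47 of cluster 2. None of the 12 genes of 90m G1 was called in G1, while 1.79% of all genes were called in both. Another 40 members (23.4%, against 1.58%) were called in 180m G1 and in none of G1, S and G2, and these are the 18 genes from OR52K2 to OR51A2 and the 22 genes of cluster 8. OR4C13 and OR4C12 took the opposite course and were absent in 90m and 180m G1 and called in G1, S and G2. Among G1, S and G2 the calls of 9 members differed (5.26%, against 3.05%): OR52L1, OR56A4 and OR56A1 (G1 only), OR4B1, OR4X2 and OR4X1 (G2 only), OR4A5 and OR4A8 (S only), and OR5AK2 (G1 and S).

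The 11 families followed their place on the chromosome. Family 2, with 5 members in clusters 1 and 7, was called in no list. Family 8, with 23 members in clusters 5 and 8, was called in full in 180m G1 had 21 called members with 1000000 cells and 20 with 50000 cells, 13 in K562 cTSA-seq, 0 in 90m G1, and 12, all of cluster 5, in the other 6 lists. Family 4 was the most scattered, with 25 members in 6 clusters called in 0 to 10 lists. Family 10, with 16 members in 4 clusters, ranged from 0 to 10 lists too. The class I families 51, 52 and 56 had 22, 27 and 6 members, and family 56 was called in G1 only (OR56A4 and OR56A1).

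In most of the lists compared, called members had fewer other genes around them than members that were not called. The GC content of their 100 kb window was also lower. Members called in HCT116 G1 had a median of 2 other protein-coding genes within 500 kb (range 0 to 20), and those not called 12 (range 0 to 22). In HCT116 bulk the medians were 3 and 14, and in K562 cTSA-seq 3 and 14. The GC content of the 100 kb window had a median of 36.1% for members called in G1 and 38.3% for the others. In 90m G1 the number of other genes had a median of 9 in both called and not called members, and the order of the window GC was the other way round, with 41.1% for the 12 called members and 37.4% for the rest. Coding length was alike in called and not called members (medians of 942 bp in both in K562 cTSA-seq and in bulk). The coding sequence itself had a lower median GC content in members called in K562 cTSA-seq (43.7% against 47.9%) and a higher one in members called in 90m G1 (50.1% against 45.8%). Called members of a list come from few clusters, so these values describe clusters and not independent genes.

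The bases before the genes were searched for letters that factors of olfactory neurons bind, TAATTA for homeodomain factors such as LHX2 and CCCNNGGG for EBF factors. Both read the same on either strand. In the 250 bases before the annotated start TAATTA occurred in 31 of the 171 members (18.1%), and in 42 of the 1146 other protein-coding genes of chromosome 11 (3.66%). CCCNNGGG occurred in 15 members (8.77%) and in 223 of the others (19.5%). The median GC content of this stretch was 36.8% in members and 59.6% in the others, which bears on both counts. For 78 members the annotation begins at the start codon, so that the stretch may not be a promoter, and in the other 93 the shares were 17.2% and 15.1%. By cluster TAATTA was most frequent in cluster 5 (13 of 48), against 11 of 67 in cluster 1 and 4 of 22 in cluster 8. The first match of each motif in the first such gene of a cluster is printed with the motif in capitals, because the genes behind these matches range from those called nowhere to those called in 10 lists.
OR52B4, chr11:4389750-4389779, minus strand: atcctccattcaTAATTAaagcgcatacaa
OR4C3, chr11:48346310-48346339, plus strand: tgcaaatttagaTAATTAagttattatttt
OR4C6, chr11:55429587-55429616, plus strand: actatgaagaatTAATTAtaattgcctctg
OR9Q2, chr11:57956389-57956418, plus strand: tttcaaaggtatTAATTAgacaccttgtta
OR10G8, chr11:123897339-123897368, plus strand: acaattgggataTAATTAtgttaggtaggt
OR52K1, chr11:4503689-4503718, plus strand: aggatacagtcCCCTTGGGtcaggggaagt
OR8H2, chr11:55871076-55871105, plus strand: tggcaaatggtCCCCAGGGcctaccaaaag
OR9I1, chr11:57893135-57893164, minus strand: ttctctggagtCCCAGGGGctgtcccaggt
OR2AT4, chr11:74808014-74808043, minus strand: agttatctggtCCCACGGGtgagccttctt
OR8D4, chr11:123772763-123772792, plus strand: gagacaagaaaCCCTTGGGactactggtct
OR52B4 was called in 2 lists, OR4C3 in 9, OR4C6 and OR8H2 in 10, OR52K1, OR9Q2 and OR8D4 in 4, OR10G8 in 3, OR9I1 in 1 and OR2AT4 in none. The match before OR4C6 lay 78 bases and that before OR2AT4 111 bases ahead of the annotated gene start.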

How the data were processed

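The 14 deposited lists cover K562 and HCT116 cells, and 10 of them each belong to a lamin-B1 cTSA-seq condition. The rest are the published K562 TSA-seq list and the authors' comparisons of it with K562 cTSA-seq. The authors aligned the reads to hg19, dropped duplicates, binned them in 100 kb windows, turned the log2 of pull-down over input into z-scores, split these into 3 states by a Hidden Markov Model and intersected replicates. The values deposited by the authors are other than a signal: starts and ends in bp. Read depth is not part of these lists. Names of tools in the submitters' processing notes were not tied to this step.

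Genes came from GENCODE release 44 on hg19 and sequences from the hg19 genome. The percent of a gene inside regions was computed with Python 3.11.15, numpy 2.4.6 and edlib 1.3.9.post1 (identity of coding sequences, edit distance over the longer sequence), and figures with matplotlib 3.10.9. The overlap was tested on simulated regions. The members and lists of genes were chosen with earlier results of these data known. Named are the first, middle and last member of each cluster, members whose calls differ between methods, cell lines or stages, those called nowhere or in part (the first 3 and last 3 of a cluster where over 10), the genes next to HBB, OR51E1, OR51E2 and the fixed gene lists. Ends of stretches with equal calls, and members printed for their sequence, were named after their values were seen. Alternatives were another share of the gene (50% or all), its first base, its coding span, regions of 200 kb or more, joined gaps of up to 100 kb, windows, clusters or pseudogenes as units, cluster gaps of 500 kb and 2 Mb, and other genes of chromosome 11 as background; leaving out cluster 5 was added after the data were seen. A gene between the receptors and a sequence stretch are not reported here.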

Additional observations from a re-analysis of the deposited data

How the results depend on the processing

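The counts of called members were within their 95% Wilson interval, and the counts of members by pattern within 1.5 times, under 50% of the gene, the whole gene, its first transcribed base, its coding span, regions of 200 kb or more, and joined gaps of up to 100 kb, for 16 results each. Only OR9Q1 and OR10G8 lay partly inside regions in any list. Another share of the gene, its first base or its coding span could therefore hardly move these counts. The interval takes the members as independent, which neighbours in a shared window are not. The shares over the 66 windows and with pseudogenes included also stayed within the interval in all 11 lists. Weighting the 8 clusters the same moved 7 shares: K562 TSA-seq to 56%, 1000000 cells to 66.2%, 200000 cells to 50.6%, 50000 cells to 62.8%, 90m G1 to 2.24%, 180m G1 to 35.5% and S to 40.5%. Leaving out cluster 5 gave 24.4% for K562 cTSA-seq, 17.9% for K562 TSA-seq, 25.2% for bulk, 32.5% for 1000000 cells, 15.4% for 200000 cells, 37.4% for 50000 cells, 35.8% for 180m G1, 7.32% for both G1 and G2, and 6.5% for S, an alternative chosen after seeing the data. All protein-coding genes were called at 5.38% in S, 4.81% in G1 and 4.55% in G2, so little excess was left there without cluster 5. A cluster gap of 2 Mb gave 5 clusters. With the other genes of chromosome 11 as background the percent called was 7.94% in K562 TSA-seq, 12.2% in bulk, 4.01% with 1000000 cells, 3.05% with 200000 cells, 4.71% with 50000 cells, 3.4% in G2, 4.45% in S, 3.14% in G1, 6.72% in 180m G1 and 22.8% in 90m G1. The lists are merged over replicates, so no replicate could be left out. No paired analysis was possible because the results come from no test.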

Other observations

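Receptor pseudogenes lie among the members, and 143 of the 192 on chromosome 11 fell inside the 8 clusters. Of these 192, 44.8% were called in K562 cTSA-seq (45% of members), 52.1% in HCT116 bulk (46.2%), 7.29% in 90m G1 (7.02%) and 32.8% in G2 (32.7%). All 48 pseudogenes of cluster 5 were called in every list other than 90m G1, in which 0 were. In cluster 8 all 19 were called in 180m G1, 18 with 1000000 cells and 15 with 50000 cells, and 3 in K562 cTSA-seq. Of those outside the clusters, the family 7 pseudogenes OR7E12P and OR7E117P near the start of the chromosome were called in 90m G1 alone. OR7E1P, OR7E4P and OR7E13P were called in no list. Others that lie near a cluster were called in many lists, such as OR4A48P and OR4A1P in 9 and OR5AK1P in 8.

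By coding sequence the nearest relative of a member on chromosome 11 lay in the same cluster for 154 of 171 members. For 124 members the calls equalled those of the nearest relative in all 11 lists (median identity 72.1%), and for 47 they differed (median identity 66%). Near relatives often share a window and with it a call, so identity and distance were not separated in this comparison. All 14 members with a relative of 95% identity or more, among them OR8B2 and OR8B3 (98.7%, 13.1 kb apart) and OR51A2 and OR51A4 (98.4%, 11.9 kb apart), had the same calls as that relative. Each such pair lies within a single 100 kb window, 9.52 to 32.5 kb apart, so its equal calls were fixed by the windows. Reads from such pairs can be hard to place. The largest contrasts came from relatives in different clusters: OR10AG1 of cluster 5 differed in 10 lists from OR2D3 of cluster 1 (60.8% identity), and OR5AR1 of cluster 5 in 7 lists from OR5B21 of cluster 6 (66%). OR4C13 and OR4C46, 88.3% identical and on the same side of the centromere 1541 kb apart, differed in 4 lists.

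For genes that act with the receptors, the share of all protein-coding genes called was 11% in K562 cTSA-seq, 9.21% in K562 TSA-seq, 11.1% in HCT116 bulk and 17.2% in 90m G1. Of the 12 olfactory signalling genes, GNAL, ADCY3, CNGA2, CNGA4, CNGB1, ANO2, OMP, RTP1, RTP2, REEP1, RIC8B and GNG13, 0 were called in K562 by either method and 1, the channel subunit gene CNGA2, in HCT116 bulk, 180m G1 and S. In 90m G1 4 of the 12 (33.3%) were called: CNGA2, the adenylyl cyclase gene ADCY3 and the receptor transporter genes RTP1 and RTP2. CNGA4, which lies inside cluster 1, and OMP, the olfactory marker protein gene of chromosome 11, were called in no list. Of the 12 regulators of receptor choice, 3 (25%), the genes for the factors EBF1, EBF2 and EBF3, were called in K562 cTSA-seq. The same number, EBF1, EBF3 and EMX2, were called in HCT116 bulk, and 4 (EBF1, EBF3, EMX2 and LHX2) in 90m G1. EBF1 was called in 8 lists, EBF3 in 5, EMX2 in 2 and LHX2 in 90m G1 alone. LDB1, EBF4, LBR, KDM1A, CBX1, CBX3 and CBX5 were called in none, as were 67.7% of all protein-coding genes. All of these 7 but LBR, and LHX2 as well, lay in the K562 regions depleted by both methods. That is 58.3% of the 12 regulators, near the 54.6% of all protein-coding genes, and 33.3% of the 12 signalling genes lay there.

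Of the 69 other protein-coding genes between the receptors 51 (73.9%, against 67.7% of all genes) were called in none of the 11 lists. Of the 69, 13 (18.8%, against 54.6% of all genes), all in cluster 1, lay in the K562 regions depleted by both methods.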
